A study of Mus musculus with 6 samples.

Results

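The data described here are the transcript levels of 10 negative regulators of proximal T cell receptor (TCR) signaling, chosen by gene symbol from known function: *Cd5*, *Cd6*, *Ptpn6*, *Ptpn11*, *Ptpn22*, *Ubash3a*, *Ubash3b*, *Cblb*, *Pag1* and *Csk*. The choice was made with earlier results of these data known. The symbols were matched to the gene identifiers of the count table, and all 10 of 10 were found among its 47643 genes. All 10 also passed the filter of at least 10 reads summed over the 6 samples, as did 11877 genes in all.

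When a TCR binds peptide, the kinase LCK phosphorylates the CD3 chains, ZAP-70 is recruited to them, and ZAP-70 phosphorylates the adaptors LAT and SLP-76. The proteins described here act against these first steps. CD5 and CD6 are surface receptors whose tails carry tyrosines that recruit other signaling proteins. SHP-1 (encoded by *Ptpn6*), SHP-2 (*Ptpn11*) and PTPN22 are tyrosine phosphatases, and SHP-2 is the phosphatase best known for binding the tail of PD1. The TULA proteins (*Ubash3a* and *Ubash3b*) are phosphatase-like proteins, of which the one encoded by *Ubash3b* acts on ZAP-70. CBL-B is a ubiquitin ligase that raises the threshold of T cell activation. PAG1 is a membrane adaptor that holds CSK, the kinase that phosphorylates the inhibitory tyrosine in the tail of LCK.

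The cells came from Tg4 Tiger *Nr4a3*-Tocky mice, whose T cells carry a transgenic TCR for a peptide of myelin basic protein (MBP), a GFP reporter of *Il10*, and a fluorescent Timer protein driven by *Nr4a3*, a gene induced by TCR signaling. All mice received 80 μg of [4Y] MBP peptide and, 24 h later, 800 μg of antibody, followed after 30 min by 8 μg of the same peptide. Spleens were taken 4 h after the second peptide, and CD4+ T cells that were positive for both the blue and the red form of the Timer were sorted, so all 3 groups hold cells selected for having signaled. The groups differed in the antibody alone (an isotype pool, anti-PD1 or anti-Lag3), with 2 samples in each, and the age of the mice was not given in the sources used here. Because cells were sorted on a reporter of *Nr4a3*, a difference between groups is one among responding cells. PD1 and Lag3 are co-inhibitory receptors of T cells, and the comparisons ask what blocking each one did to the cells that answered the second peptide.

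The libraries were 3′ mRNA libraries with between 2107715 and 2648920 counts per sample, and a negative regulator had between 40 and 599 reads in a sample. Levels are given as CPM, counts scaled to each library's size after TMM scaling. A transcript gives reads near its 3′ end alone, so CPM was not divided by length, and levels of different genes are compared as reads per transcript end. Markers of CD4 T cells were detected in every sample (6 of 6 genes, *Cd3d*, *Cd3e*, *Cd3g*, *Cd4*, *Thy1* and *Cd28*), with a summed level between 1120 and 1220 CPM in the isotype samples, between 1060 and 1080 CPM with anti-PD1, and between 1170 and 1270 CPM with anti-Lag3. Of these, *Cd3d*, *Cd3e*, *Cd3g* and *Cd4* were lower in both anti-PD1 samples than in both isotype samples (0.791-, 0.769-, 0.747- and 0.799-fold), and none passed the edgeR test. *Cd79a*, which encodes a chain of the B cell receptor complex, had no read in any sample. The summed level of 12 B cell markers was nevertheless between 132 and 140 CPM in the isotype samples, between 55.6 and 69 CPM with anti-PD1, and between 84.8 and 129 CPM with anti-Lag3, most of it from *Ighm*. The summed level of 12 macrophage and monocyte markers was between 66.4 and 82.9 CPM with isotype, between 23.5 and 39.3 CPM with anti-PD1, and between 43.4 and 48.3 CPM with anti-Lag3. Summed CD8 T and NK cell markers ran from 48.3 to 57 CPM with isotype and from 33.1 to 35 CPM in each of the other two groups, and erythroid markers from 44.7 to 50.4 CPM with isotype, 18.7 to 45.8 CPM with anti-PD1, and 21.9 to 50.5 CPM with anti-Lag3. One non-coding gene, *Gm42418*, took between 17.4% and 21% of all counts. The study's methods describe biological replicates, but the labels do not say which mouse each sample came from, so p-values measure the spread between these samples.

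The mean levels of the 10 genes ran from 21.5 to 171 CPM. *Ptpn6* (171 CPM as the mean of 6 samples), *Cblb* (167 CPM), *Csk* (165 CPM) and *Ptpn11* (127 CPM) formed an upper tier that overlapped among themselves in range. The lowest sample of *Ptpn11* (105 CPM) was above the highest sample of *Ptpn22* (88.3 CPM), the next gene in the order. *Ptpn22* (75.9 CPM), *Ubash3b* (64.6 CPM), *Cd5* (63.6 CPM) and *Cd6* (62.4 CPM) formed a middle tier in which neighbors again overlapped, and *Pag1* (31.2 CPM) and *Ubash3a* (21.5 CPM) were lowest, with overlapping ranges. The highest sample of *Pag1* (45.5 CPM) exceeded the lowest samples of *Cd6* (44.8 CPM), *Ubash3b* (43.8 CPM) and *Cd5* (41.5 CPM), so the lower tiers overlapped too. The order changed with the antibody. *Ptpn6* ranked 1 of 10 with isotype, 3 with anti-PD1 and 2 with anti-Lag3. *Cblb* ranked 4, 1 and 3 in the same groups, and *Cd5* ranked 8, 5 and 6.

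**Figure D1:**
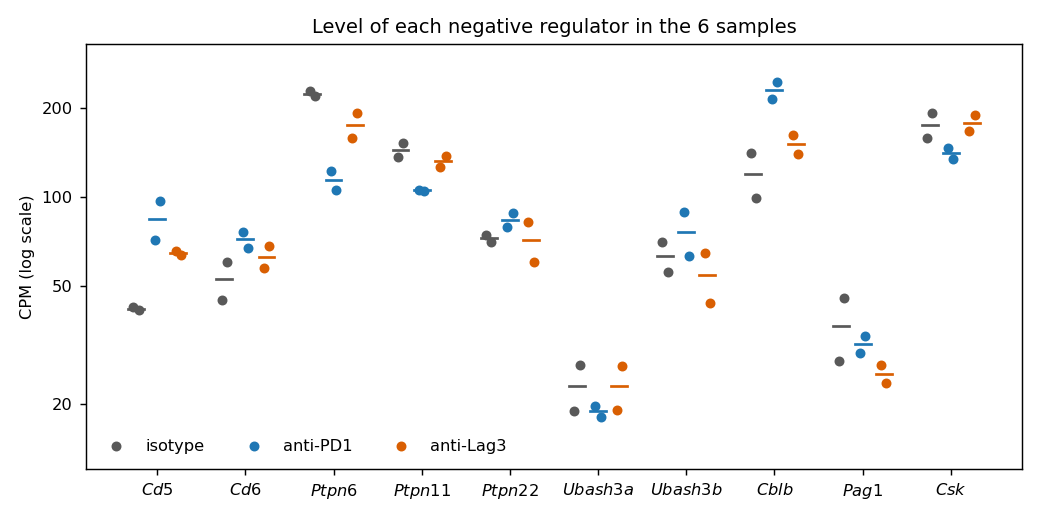
Level of each negative regulator (CPM, log scale) in the 6 samples; points are samples, horizontal bars are means of 2, and colors give the antibody. *Cd5* and *Cblb* sit higher with anti-PD1 than with isotype and *Ptpn6* sits lower, and the anti-Lag3 means of these 3 genes lie between the means of the other groups.

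The comparison of anti-PD1 with isotype asks how the responding cells differed when PD1 was blocked. Of the 10 negative regulators, 2 rose (*Cd5* and *Cblb*), 1 fell (*Ptpn6*) and 7 did not pass the test, an edgeR quasi-likelihood test with p-values adjusted over all 11877 genes and a threshold of 0.05. Over all genes tested, 0.901% passed, 0.631% as higher and 0.269% as lower. At an unadjusted p under 0.05 the count was 6 of 10, against 8.12% of all genes, and the samples of the groups did not overlap in 7 of 10 (4 higher and 3 lower), against 37.4% of all genes. The median log2 fold change of the 10 was 0.00, as it was over all genes (0.00), because 5 were positive and 5 negative. The median of the absolute log2 fold changes was 0.38 against 0.26 over all genes. Since the 10 genes were chosen with earlier results of these data known, their counts beside all genes are a description. They are not an independent test, here or in the other comparisons. In bulk samples, fewer cells of a type that express a gene and less of its RNA per cell cannot be told apart, and this holds for every value below.

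*Cd5* had 42.4 and 41.5 CPM in the isotype samples, 71.4 and 96.9 CPM with anti-PD1, and 65.8 and 63.9 CPM with anti-Lag3. Both isotype samples lay below all the others, and the anti-PD1 samples were the 2 highest. *Cd5* was 2.01-fold higher with anti-PD1 than with isotype (log2 fold change 1.01, SE 0.19, 95% confidence interval 0.62 to 1.40; edgeR adjusted p = 0.00154). The spread of the anti-PD1 pair was wide (84.2 ± 18.0 CPM, SD, n = 2) beside that of the isotype pair (41.9 ± 0.674 CPM, SD, n = 2). Without anti-PD1 replicate 2 the log2 fold change was 0.77 and the call was lost (edgeR adjusted p = 0.301), and without isotype replicate 2 it was 0.99 (edgeR adjusted p = 0.0588). *Cd5* is itself known as a gene whose surface level in T cells follows the strength of TCR signaling.

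*Cd6* encodes the receptor most related to CD5. It lies on the same strand of chromosome 19 with 50338 bases between the genes (*Cd5* at chr19:10717116-10739002 and *Cd6* at chr19:10789341-10830058 of GRCm38), and a single annotated gene, *A430093F15Rik*, lies between them. *Cd6* had 44.8 and 60.4 CPM with isotype, 76.2 and 67.5 CPM with anti-PD1, and 57.4 and 68.3 CPM with anti-Lag3. Both anti-PD1 samples exceeded both isotype samples, by a log2 fold change of 0.44 (SE 0.19, 95% confidence interval 0.05 to 0.83) that did not pass (edgeR adjusted p = 0.506). The log2 ratio of *Cd5* to *Cd6* within a sample ran from −0.54 to −0.08 with isotype and from −0.09 to 0.52 with anti-PD1, so the groups overlapped.

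*Cblb* had 141 and 99.0 CPM with isotype, 215 and 245 CPM with anti-PD1, and 162 and 140 CPM with anti-Lag3. The anti-PD1 samples were the 2 highest of the 6, and the isotype and anti-Lag3 samples overlapped. *Cblb* was 1.93-fold higher with anti-PD1 than with isotype (log2 fold change 0.95, SE 0.15, 95% confidence interval 0.65 to 1.24; edgeR adjusted p = 5.51e-05). Across all other tools, scalings and filters its log2 fold change stayed between 0.93 and 0.97. Leaving out 1 sample at a time moved it between 0.71 and 1.22, and the call held each time (largest edgeR adjusted p = 0.0422). Its closest relative in the wider list, *Cbl*, which encodes another ubiquitin ligase of the family, had 217 and 247 CPM with isotype and 226 and 251 CPM with anti-PD1 (log2 fold change 0.04; edgeR adjusted p = 0.981). The log2 ratio of *Cblb* to *Cbl* rose from −0.62 and −1.32 with isotype to −0.07 and −0.04 with anti-PD1, and the groups did not overlap.

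*Ptpn6* had the highest CPM of the 10 genes in the isotype samples and fell with anti-PD1. It had 228 and 220 CPM with isotype, 123 and 106 CPM with anti-PD1, and 159 and 192 CPM with anti-Lag3, and the 3 groups did not overlap. With anti-PD1 its level was 0.51-fold that with isotype (log2 fold change −0.97, SE 0.14, 95% confidence interval −1.25 to −0.69; edgeR adjusted p = 1.41e-05). Leaving out 1 sample at a time kept the log2 fold change between −1.08 and −0.86 and the call each time (largest edgeR adjusted p = 0.0169). SHP-1 is also abundant in B cells and myeloid cells, and the summed markers of both were lower with anti-PD1, as given above. Of the B cell markers, 9 of the 10 tested were lower with anti-PD1 and 2 of them, *Igkc* and *Ighm*, passed the test. Of the macrophage and monocyte markers, 9 of the 11 tested were lower and 1, *C1qa*, passed. The part of these cells in the fall of *Ptpn6* was not tested.

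**Figure D2:**
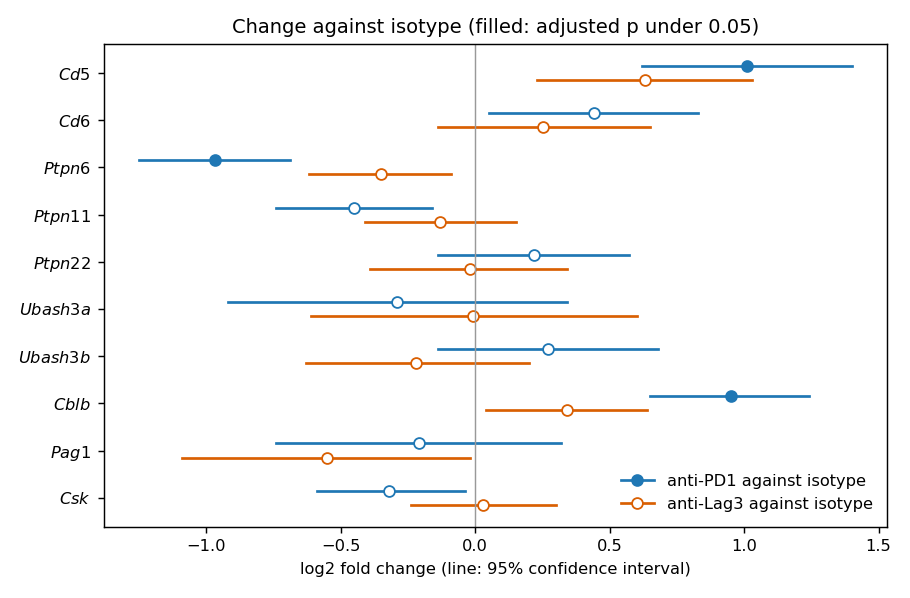
Log2 fold change of each negative regulator against isotype, for anti-PD1 (blue) and anti-Lag3 (orange); lines are 95% confidence intervals and filled points have an edgeR adjusted p under 0.05. Filled points are *Cd5*, *Ptpn6* and *Cblb* with anti-PD1, and no anti-Lag3 point is filled.

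Promoter sequences of the 3 genes that passed are shown because *Cd5* and *Cblb* moved together and *Ptpn6* moved the other way. Each runs 5′ to 3′ from 250 bases before to 50 bases after the RefSeq start on GRCm38.p6, on the gene's own strand, with every CG dinucleotide in capitals. *Cd5* is at chr19:10738925-10739224 (minus strand), *Cblb* at chr16:52031299-52031598 (plus strand) and *Ptpn6* at chr6:124738660-124738959 (minus strand). The *Cblb* window lies wholly inside the gene as annotated by GENCODE, which starts at chr16:52031225. It therefore holds no sequence upstream of that annotated start.
Cd5: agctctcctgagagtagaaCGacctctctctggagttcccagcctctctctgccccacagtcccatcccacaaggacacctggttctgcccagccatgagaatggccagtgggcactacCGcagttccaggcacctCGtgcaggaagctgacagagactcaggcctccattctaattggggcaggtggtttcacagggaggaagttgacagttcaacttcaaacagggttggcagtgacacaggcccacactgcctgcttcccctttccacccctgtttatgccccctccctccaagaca
Cblb: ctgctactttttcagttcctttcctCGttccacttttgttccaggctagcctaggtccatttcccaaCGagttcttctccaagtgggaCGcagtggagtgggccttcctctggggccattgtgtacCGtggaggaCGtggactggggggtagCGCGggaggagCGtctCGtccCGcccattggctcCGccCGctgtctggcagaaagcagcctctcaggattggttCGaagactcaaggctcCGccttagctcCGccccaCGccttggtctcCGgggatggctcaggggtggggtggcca
Ptpn6: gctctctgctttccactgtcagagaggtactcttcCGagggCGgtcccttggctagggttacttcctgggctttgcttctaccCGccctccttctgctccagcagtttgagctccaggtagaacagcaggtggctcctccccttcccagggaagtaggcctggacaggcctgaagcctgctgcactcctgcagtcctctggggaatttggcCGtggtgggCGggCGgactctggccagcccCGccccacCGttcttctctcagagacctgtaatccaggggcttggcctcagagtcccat
The *Cd5* promoter held 3 CG dinucleotides, that of *Ptpn6* 8 and that of *Cblb* 17, against a median of 7 over 32851 promoters. GC content was 57.3% for *Cd5*, 61.7% for *Ptpn6* and 61.3% for *Cblb*, against a median of 52.7%. None of 4 motifs searched on both strands occurred in the 3 windows: GGAAAA, bound by NFAT (in 23.4% of all promoters of this length); TGANTCA, bound by AP-1 (7.81%); AAAGGTCA, bound by NR4A factors (1.51%); and GCGTGGGCG, bound by EGR factors (0.612%). Of the 8 negative regulators with a RefSeq promoter, GGAAAA occurred in 1 of the entries each of *Ubash3b* and *Csk*, 2 times in each. With so few genes, and with 23.4% of all promoters holding this motif, the matches are given as a description. The promoter of *Ptpn11* had 37 CG dinucleotides, more than 94.4% of promoters. *Cd6* and *Pag1* had no entry.

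Among the other phosphatases, *Ptpn11*, which encodes SHP-2, had 137 and 152 CPM with isotype, 106 and 105 CPM with anti-PD1, and 126 and 138 CPM with anti-Lag3. The anti-PD1 samples were the 2 lowest. The log2 fold change against isotype was −0.45 (SE 0.14, 95% confidence interval −0.74 to −0.16) and did not pass (edgeR adjusted p = 0.16). *Ptpn11* and *Ptpn6* thus had the same sign, and the log2 ratio of *Ptpn11* to *Ptpn6* was −0.74 and −0.53 with isotype, −0.22 and −0.01 with anti-PD1, and −0.33 and −0.48 with anti-Lag3. The ratio was higher in both anti-PD1 samples than in the other 4, by a mean of 0.52 on the log2 scale against isotype.

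*Ptpn22*, whose product removes phosphate from LCK and ZAP-70, had 74.5 and 70.4 CPM with isotype, 79.5 and 88.3 CPM with anti-PD1, and 82.2 and 60.5 CPM with anti-Lag3. The anti-PD1 samples lay just above the isotype samples and the anti-Lag3 pair spanned both (log2 fold change of anti-PD1 against isotype 0.22, 95% confidence interval −0.14 to 0.57; edgeR adjusted p = 0.861). A same-strand intronic gene within *Ptpn22*, *Gm15472*, was counted separately with 126 reads over the 6 samples.

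For the TULA family, neither gene separated the groups. *Ubash3a* had 18.8 and 27.0 CPM with isotype, 19.6 and 18.0 CPM with anti-PD1, and 19.0 and 26.7 CPM with anti-Lag3, on 309 reads in all. *Ubash3b* had 70.2 and 55.9 CPM with isotype, 89.1 and 63.4 CPM with anti-PD1, and 64.9 and 43.8 CPM with anti-Lag3. The spread between replicates was as large as the difference between groups in both genes, and the 95% confidence intervals of the log2 fold change with anti-PD1 ran from −0.92 to 0.34 for *Ubash3a* and from −0.14 to 0.68 for *Ubash3b*. Levels down to 0.528-fold for *Ubash3a* and up to 1.6-fold for *Ubash3b* lay within these intervals.

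In the CSK arm, *Csk* had 158 and 192 CPM with isotype, 147 and 135 CPM with anti-PD1, and 167 and 190 CPM with anti-Lag3. The anti-PD1 samples were the 2 lowest, and the log2 fold change of −0.32 (SE 0.14, 95% confidence interval −0.59 to −0.04) did not pass (edgeR adjusted p = 0.492). *Pag1* had 27.8 and 45.5 CPM with isotype, 29.7 and 33.9 CPM with anti-PD1, and 27.0 and 23.4 CPM with anti-Lag3. Its isotype samples spanned the anti-PD1 samples, and the sign of its difference depended on which isotype sample was used (log2 fold change −0.21 with all samples and 0.20 without isotype replicate 2).

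**Figure D3:**
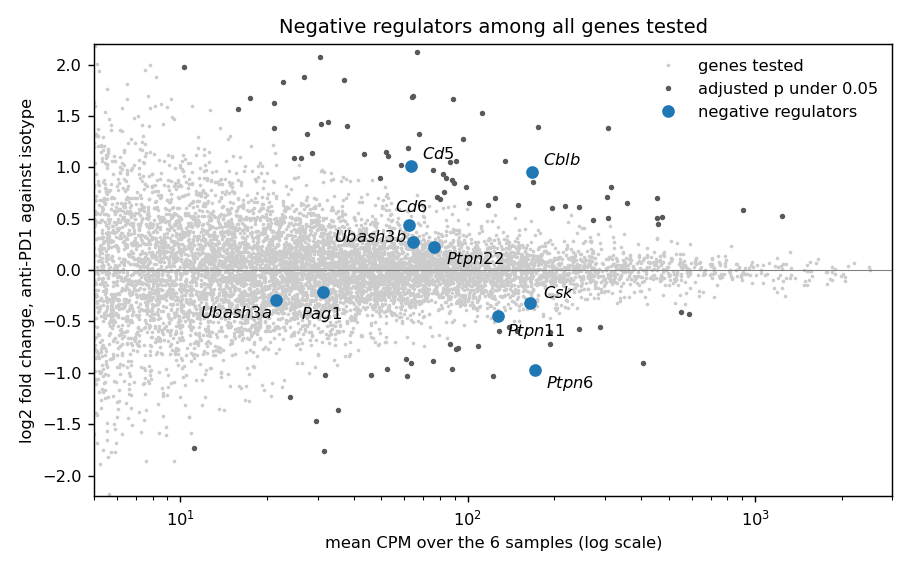
Log2 fold change of anti-PD1 against isotype and mean CPM over the 6 samples (log scale) for the genes tested (light grey), those with an edgeR adjusted p under 0.05 (dark grey) and the 10 negative regulators (blue). The axes cover 5 to 3000 CPM and hold 8604 of 11877 genes; *Cd5*, *Cblb* and *Ptpn6* lie at the edge of the cloud for their level and the other 7 lie within it.

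Ratios of single genes were read within each sample, where scaling between libraries plays no part. *Ptpn6*, the denominator of the first 3 ratios, itself fell with anti-PD1 (log2 fold change −0.97), so these ratios restate that fall in part. *Csk* was also lower with anti-PD1 (−0.32, which did not pass), and its ratio to *Ptpn6* rose because *Ptpn6* fell more. The log2 ratio of *Cd5* to *Ptpn6* was −2.43 and −2.41 with isotype, −0.79 and −0.13 with anti-PD1, and −1.27 and −1.58 with anti-Lag3. The log2 ratio of *Cblb* to *Ptpn6* was −0.69 and −1.15 with isotype, 0.80 and 1.21 with anti-PD1, and 0.03 and −0.46 with anti-Lag3. The CPM of *Ptpn6* was thus above that of *Cblb* in both isotype samples, and the reverse held in both anti-PD1 samples. Reads of different genes do not measure transcript numbers on one scale. For *Csk* over *Ptpn6* the log2 ratio was −0.53 and −0.20 with isotype, 0.25 and 0.35 with anti-PD1, and 0.07 and −0.01 with anti-Lag3. In these 3 ratios all 3 groups stood apart, with anti-Lag3 in the middle. The ratio of the ubiquitin ligase to the kinase, *Cblb* to *Csk*, was −0.16 and −0.96 with isotype, 0.55 and 0.86 with anti-PD1, and −0.04 and −0.45 with anti-Lag3 on the log2 scale, and the isotype and anti-Lag3 samples overlapped. No test is given for the ratios, since 2 samples against 2 cannot reach 0.05 in an exact permutation test.

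Ratios to *Cd3e* and *Lck*, genes of the proximal signaling machinery, had the same signs as the differences in level. The log2 ratio of *Cd5* to *Cd3e*, a chain of the TCR complex, had a mean of −2.08 with isotype, −0.72 with anti-PD1 and −1.25 with anti-Lag3, and the 3 groups did not overlap. *Cd3e* was itself lower in both anti-PD1 samples (162 and 193 CPM with isotype, 143 and 131 CPM with anti-PD1; log2 fold change −0.38; edgeR adjusted p = 0.296), so this ratio differed by 1.36 between anti-PD1 and isotype where *Cd5* alone differed by 1.01 on the log2 scale. The log2 ratio of *Ptpn6* to *Lck* was −0.47 and −0.35 with isotype, −0.94 and −1.36 with anti-PD1, and −1.05 and −0.50 with anti-Lag3. In the latter ratio the anti-PD1 and anti-Lag3 samples overlapped, while both lay below the isotype samples.

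**Figure D4:**
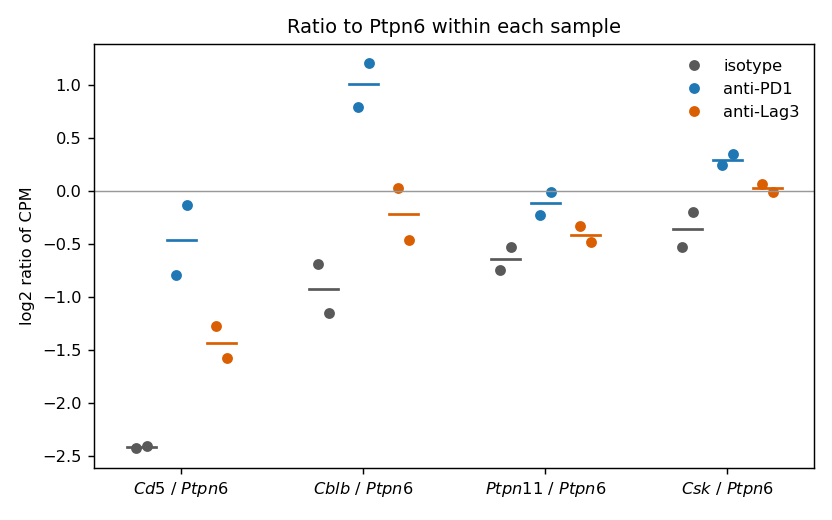
Log2 ratio of the CPM of *Cd5*, *Cblb*, *Ptpn11* and *Csk* to that of *Ptpn6* within each sample; points are samples, bars are means of 2, and colors give the antibody. Every ratio is lowest with isotype and highest with anti-PD1, with mean differences between these groups of 1.96, 1.93, 0.52 and 0.67. *Ptpn6*, the shared denominator, was itself lower with anti-PD1 than with isotype.

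The comparison of anti-Lag3 with isotype asks the same of Lag3, and it used the same isotype samples. None of the 10 genes passed the edgeR test, and the count was 0 with DESeq2 and limma-voom as well, against 0.0421% of all genes with edgeR (0.0253% as higher and 0.0168% as lower). At an unadjusted p under 0.05 the count was 4 of 10, against 5.96% of all genes tested, and the groups did not overlap in 3 of 10, against 34.6% of all genes. Those 4 were *Cd5* (log2 fold change 0.63, SE 0.20, 95% confidence interval 0.23 to 1.03; edgeR adjusted p = 0.593), *Ptpn6* (−0.35, 95% confidence interval −0.62 to −0.09), *Cblb* (0.34, 95% confidence interval 0.04 to 0.64) and *Pag1* (−0.55, 95% confidence interval −1.09 to −0.02). The values with anti-PD1 were 1.01 for *Cd5*, −0.97 for *Ptpn6*, 0.95 for *Cblb* and −0.21 for *Pag1*. For the first 3 genes the sign was the same under both antibodies and the value was smaller with anti-Lag3. The remaining 6 genes had log2 fold changes between −0.22 and 0.25 with anti-Lag3. The test does not show that these genes stayed level, since the intervals of *Ubash3a*, for example, reached from −0.61 to 0.60.

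The direct comparison of anti-PD1 with anti-Lag3 tests whether the antibodies differed. Of the 10 genes, 1 was higher with anti-PD1 (*Cblb*) and 1 was lower (*Ptpn6*), against 0.244% of all genes tested as higher, 0.0589% as lower and 0.303% in either direction. At an unadjusted p under 0.05 the count was 6 of 10, against 6.53% of all genes, and the groups did not overlap in 6 of 10, against 35.9% of all genes. The level of *Cblb* was 1.52-fold that with anti-Lag3 (log2 fold change 0.61, SE 0.14, 95% confidence interval 0.32 to 0.90; edgeR adjusted p = 0.042). For *Ptpn6* it was 0.651-fold (log2 fold change −0.62, SE 0.14, 95% confidence interval −0.90 to −0.34; edgeR adjusted p = 0.0248). Both adjusted p-values lay near the threshold, and both calls were lost without anti-PD1 replicate 1, without anti-PD1 replicate 2 and without anti-Lag3 replicate 2 (for *Cblb*, edgeR adjusted p = 0.201, 0.901 and 0.431; for *Ptpn6*, 0.119, 0.843 and 0.431). With DESeq2 the adjusted p for *Cblb* was 0.134. *Cd5* was 1.3-fold higher with anti-PD1, which did not pass (log2 fold change 0.38, 95% confidence interval 0.01 to 0.75; edgeR adjusted p = 0.755), so a difference between the antibodies in *Cd5* was not shown.

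Wider lists, also chosen with earlier results of these data known, place these genes among the rest of the pathway. Of 24 other negative regulators of TCR signaling (further ubiquitin ligases, phosphatases, adaptors and lipid kinases), 23 were tested and *Rnf128* had too few reads. None passed the edgeR test in any of the 3 comparisons. At an unadjusted p under 0.05 the counts were 6 of 23 for anti-PD1 against isotype, 2 for anti-Lag3 against isotype and 2 for anti-PD1 against anti-Lag3. Over all genes tested, in the same order, 0.901%, 0.0421% and 0.303% passed the edgeR test. The all-gene shares at an unadjusted p under 0.05 were 8.12%, 5.96% and 6.53%. DESeq2 and limma-voom made no call either in these comparisons. The median log2 fold change with anti-PD1 was −0.10, with 8 positive and 15 negative. Over all genes it was 0.00, with 6015 positive and 5861 negative. The largest values in size were those of *Ptprj* (−1.58) and *Nedd4* (−1.51), both low genes, with *Ptprj* at 2.82 CPM or less and *Nedd4* at 12.1 CPM or less in every sample, and *Inpp5d*, which encodes the lipid phosphatase SHIP-1 (−0.67; edgeR adjusted p = 0.613). Nearest to the threshold was *Ptpn2*, named after its values were seen, which encodes a phosphatase acting on LCK and on JAK kinases. It had 104 and 95.8 CPM with isotype, 136 and 154 CPM with anti-PD1, and 120 and 134 CPM with anti-Lag3 (log2 fold change with anti-PD1 0.54; edgeR adjusted p = 0.0623), and was called with the replicate number as a block.

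Of 27 genes of the proximal signaling machinery that these regulators act on, 26 were tested (*Trat1* had too few reads). With anti-PD1, 0 rose and 2 fell against isotype, where 0.631% of all genes tested passed as higher and 0.269% as lower. At an unadjusted p under 0.05 the count was 9 of 26, against 8.12% of all genes tested, and both anti-PD1 samples were lower in 11 genes and higher in 4, while the groups did not overlap in 37.4% of all genes. The genes that fell encode adaptors that work together downstream of ZAP-70. *Fyb* (ADAP) had 305 and 268 CPM with isotype, 190 and 195 CPM with anti-PD1, and 256 and 250 CPM with anti-Lag3 (log2 fold change −0.57, SE 0.12; edgeR adjusted p = 0.00417). *Lcp2* (SLP-76) had 175 and 168 CPM with isotype, 122 and 105 CPM with anti-PD1, and 160 and 156 CPM with anti-Lag3 (log2 fold change −0.59, SE 0.14; edgeR adjusted p = 0.0157). In both genes the anti-PD1 samples were the 2 lowest. Leaving out 1 sample at a time gave between 0 and 3 calls in this list, and both calls were lost without isotype replicate 1 and without either anti-PD1 sample. *Txk*, a TEC-family kinase, had 29.2 and 23.3 CPM with isotype and 45.5 and 52.7 CPM with anti-PD1 (log2 fold change 0.91; edgeR adjusted p = 0.0522), and was called with the replicate number as a block. *Lck* and *Zap70*, the kinases that the negative regulators restrain, had log2 fold changes of −0.23 and 0.34 with anti-PD1 and did not pass (edgeR adjusted p = 0.67 and 0.473). The median over the list was −0.08. No gene of this list passed the edgeR test in the other two comparisons, where 1 gene (anti-Lag3 against isotype) and 6 genes (anti-PD1 against anti-Lag3) had an unadjusted p under 0.05 (5.96% and 6.53% of all genes) and DESeq2 and limma-voom made no call.

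**Figure D5:**
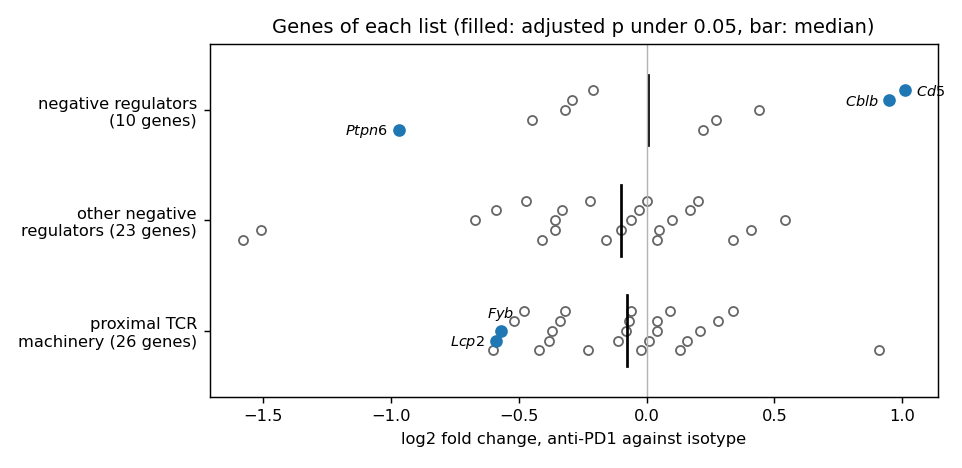
Log2 fold change of anti-PD1 against isotype for the 10 negative regulators, 23 other negative regulators and 26 genes of the proximal TCR machinery; points are genes (spread vertically for view), filled points have an edgeR adjusted p under 0.05, and black bars are medians. Filled points are *Cd5*, *Cblb* and *Ptpn6* in the upper row and *Fyb* and *Lcp2* in the lower one.

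The genes for the antibody targets and for the sorting reporter were read in the same samples. *Nr4a3* had 51.4 and 45.1 CPM with isotype, 29.7 and 29.4 CPM with anti-PD1, and 40.9 and 36.8 CPM with anti-Lag3 (log2 fold change with anti-PD1 −0.70; edgeR adjusted p = 0.195), so the order of the groups was that of *Ptpn6*. The paper reports the reverse for the blue Timer protein, which was higher in responding cells with anti-PD1 than with isotype or anti-Lag3. Reporter protein and *Nr4a3* transcript are unlike measures, and the reason for the difference was not tested. *Pdcd1*, which encodes PD1, had 16.0 and 13.3 CPM with isotype, 12.9 and 12.3 CPM with anti-PD1, and 12.7 and 17.1 CPM with anti-Lag3. Its anti-PD1 samples lay just below its isotype samples, a difference that did not pass (log2 fold change −0.21; edgeR adjusted p = 0.966), and its anti-Lag3 samples overlapped both. *Lag3* had between 2.6 and 7.59 CPM, and its groups overlapped.

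The 3 genes that passed were compared with 5432 genes of at least 20 CPM by how alike the 6 values were, as the root mean square difference of log2 CPM after each gene was centered on its own mean. Nearest to *Cd5* were *Tnfrsf18* (0.074), *Samhd1* (0.099) and *Nsf* (0.113). *Tnfrsf18* encodes GITR, a co-stimulatory receptor of the TNF receptor family. Nearest to *Cblb* were *Rbpj* (0.103), the DNA-binding factor of Notch signaling, *Furin* (0.109), a protein-cutting enzyme, and *Map2k4* (0.113), a kinase of the JNK pathway. Nearest to *Ptpn6* were *Foxn3* (0.084), *Fchsd2* (0.086) and *Tmem229b* (0.106). Between the regulators themselves, the difference was read only for pairs that hold a gene that passed. It was 0.203 for *Cd5* and *Cblb* and 0.232 for *Ptpn6* and *Ptpn11*, against 0.820 for *Cd5* and *Ptpn6* and 0.824 for *Cblb* and *Ptpn6*. The other pairs read lay in between, such as *Ptpn6* and *Csk* (0.291), *Cd5* and *Cd6* (0.319) and *Cblb* and *Ptpn22* (0.334). Pairs among the regulators that did not pass were not compared and may lie closer. Genes called in opposite directions necessarily lie far apart by this measure, and genes called in the same direction, such as *Cd5* and *Cblb*, tend to lie close. These values describe 6 samples in 3 groups and carry no test.

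*Cblb* and *Ptpn6* were also checked for reads that a neighboring gene could share. *Cblb* lies at chr16:52031225-52208048 on the plus strand and *Ptpn6* at chr6:124720707-124738714 on the minus strand of GRCm38. The gene overlapping *Cblb*, *Gm23513*, had 0 reads, and the antisense gene overlapping *Ptpn6*, *Gm20531*, had 8 reads over the 6 samples against 2440 for *Ptpn6*. No annotated gene overlapped *Cd5*.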

How the data were processed

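The samples were *Nr4a3*-Timer Blue+Red+ CD4+ T cells, 3 groups of 2. The 10 genes and the wider gene lists were chosen with earlier results of these data known.

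The authors prepared QuantSeq 3′ libraries, sequenced them, trimmed reads with Bbduk and aligned them with STAR (version 2.5.2a in the submitters' processing notes) to GRCm38. The deposited counts are whole reads per Ensembl gene from HTSeq-count, not normalized. The strand setting and annotation release were not given in the sources used here. The deposited rlog values, on a log2 scale, were made by the authors with DESeq2 and shrink differences of low genes, and were used for one alternative. A further replicate batch, which the study set aside as an outlier in a principal component analysis, was not analysed here. The spread within groups was thus measured on the samples kept after that choice.

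Genes with at least 10 reads over the 6 samples were kept (11877). TMM-scaled counts of all samples entered one edgeR fit (edgeR 4.0.16, R 4.3.3; glmQLFit and glmQLFTest, legacy default; common dispersion 0.016). Adjustment followed Benjamini-Hochberg, with 0.05 as threshold. The alternatives were DESeq2 1.42.0, limma-voom (limma 3.58.1), a newer quasi-likelihood method, other scalings and filters, a threshold of 0.1, the samples of each comparison alone, a block on replicate number, plain library sizes and each sample left out. GENCODE's GRCm38 annotation gave symbols (for 47224 of 47643 identifiers) and positions, and RefSeq gave promoters. The text names the 10 genes. From each wider list it names every gene called in any comparison and, where fewer than 3 were called, those with the largest absolute change with anti-PD1 until 3 are named. It also names *Nr4a3*, *Pdcd1* and *Lag3*, and the 3 genes most like each called one. *Cbl*, *Cd3e*, *Lck*, *Zap70*, *Ptpn2* and the markers named lie outside this rule and were chosen after values were seen.

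Totals ran from 2107715 to 2648920 counts per sample, so 3 counts equal 1.11 to 1.44 CPM. Within each group the replicates differed beyond sampling noise (chi-square over degrees of freedom: anti-PD1 2.65, isotype 3.23, anti-Lag3 3.29). Protein sequences were not used here.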

Additional observations from a re-analysis of the deposited data

How the results depend on the processing

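The calls of *Ptpn6* and *Cblb* in anti-PD1 against isotype held in every alternative run, and that of *Cd5* in all but the omissions named in the report (log2 fold change 0.77 to 1.21). Of the 10 genes, 2 to 3 were called in this comparison when 1 sample was left out, and 0 in each case for anti-Lag3 against isotype. For anti-PD1 against anti-Lag3, the count of 2 became 1 with DESeq2, 1 with filterByExpr, 0 with the newer quasi-likelihood method (adjusted p = 0.0536 for *Ptpn6* and 0.0741 for *Cblb*) and 0 to 2 with 1 sample left out. Among the other negative regulators, *Ptpn2* was called (1 gene in place of 0 for anti-PD1 against isotype) with no filter beyond 1 read, with the 4 samples alone, at a threshold of 0.1, with the replicate block, and in some omissions (0 to 1). The machinery list gave 1 call in place of 2 with DESeq2 (0 to 3 with 1 sample left out).

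Over all genes, the 107 calls of anti-PD1 against isotype became 69 with DESeq2, 166 at a threshold of 0.1 and 46 to 161 with 1 sample left out. The 5 calls of anti-Lag3 against isotype became 1 with DESeq2, 0 with the newer method, 0 with filterByExpr, 20 with no filter, 0 with the 4 samples alone and 0 to 16 with 1 sample left out. They became 3 without *Gm42418* and mitochondrial rRNA, an alternative chosen after seeing the data. The 36 calls of anti-PD1 against anti-Lag3 became 16 with DESeq2, 58 with no filter and 3 to 49 with 1 sample left out. The cause of these shifts was not tested.

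Signs turned when 1 sample was left out in anti-Lag3 against isotype for *Ptpn22* (−0.26 to 0.19), *Ubash3a* (−0.27 to 0.28), *Ubash3b* (−0.52 to 0.06) and *Csk* (−0.10 to 0.18), and in anti-PD1 against isotype for *Pag1* (−0.51 to 0.20). On the deposited rlog values the differences with anti-PD1 were 0.39 for *Cd5*, 0.58 for *Cblb* and −0.60 for *Ptpn6*. The study's methods say that a set of 3 samples it removed had been sorted and handled as a batch, so the replicates may have been run as batches, but the labels do not say that equal numbers share one. Over all 11877 genes tested, deviations of samples with the same number were hardly correlated (0.021, 0.018 and −0.01). Many of these genes had few reads, so a deviation shared by some genes alone might not show in these values. The replicate block changed no call of the 10 genes, added a call of *Txk* to the machinery list (3 in place of 2), and gave 144, 6 and 46 calls over all genes in the 3 comparisons. With 40 to 599 reads per gene and sample, counting error was largest for *Ubash3a* and *Pag1*.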
